A study of Mus musculus with 2 samples.

Results

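Neuregulins and ErbB receptors were described in spinal cord RNA of mice in which Secisbp2l had been targeted with Olig1-Cre, a driver of the oligodendrocyte lineage. The family was taken by gene name as 4 ligand genes (Nrg1, Nrg2, Nrg3 and Nrg4) and 4 receptor genes (Egfr, Erbb2, Erbb3 and Erbb4), 8 of the 51826 genes in the deposited table, with the 52 deposited transcripts of these genes among 128622. All 8 were found. The cKO library came from C57BL/6 mice at postnatal day 7 with the genotype Olig1-Cre;Secisbp2l-floxed(Ex3), in which the Cre recombinase is driven from Olig1 and the floxed part of Secisbp2l is exon 3. The WT library came from wild-type C57BL/6 mice of the same age. There was 1 library in each group. The labels do not state the number of animals in a library, the zygosity of the floxed allele, or whether the wild-type mice carried Cre. The spread between animals could not be measured, and the comparisons below are of 1 library with another, without p-values.

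Neuregulins are ligands of the epidermal growth factor (EGF) family, made largely by neurons. They bind the receptor tyrosine kinases ERBB3 and ERBB4. ERBB2 has no known ligand of its own and serves as the partner of the other receptors, ERBB3 has little kinase activity and signals through such pairs, and EGFR binds EGF, TGF-alpha and related ligands. In peripheral nerve, membrane-bound neuregulin 1 on axons sets the thickness of the myelin that Schwann cells make through ERBB2 and ERBB3. In the central nervous system the same receptors are found on cells of the oligodendrocyte lineage, and ERBB4 is abundant in inhibitory neurons.

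Several of these genes make transcripts that differ by short coding exons, and the results below turn on which transcript received the counts. The exons that tell the main forms apart are shown here, 5′ to 3′ on the coding strand, from the GENCODE M21 transcripts on GRCm38. The Nrg1 pair are alternative ends of the EGF-like domain that binds the receptor, with the codons for cysteine in capitals. The beta exon lies at chr8:31837670-31837728 and the alpha exon at chr8:31838261-31838328, both on the minus strand.
Nrg1 beta exon: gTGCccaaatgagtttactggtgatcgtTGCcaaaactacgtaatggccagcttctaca
Nrg1 alpha exon: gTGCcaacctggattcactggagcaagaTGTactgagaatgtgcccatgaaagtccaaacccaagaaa
The Erbb4 exons set how the receptor is cut and how it signals. The JM-a exon (chr1:68290243-68290317, minus strand) encodes the stretch next to the membrane at which proteases cut the receptor, and the JM-b exon (chr1:68290439-68290483, minus strand) takes its place in uncut forms. The CYT exon (chr1:68043908-68043955, minus strand) holds, in capitals, the codons of the tyrosine motif that binds phosphoinositide 3-kinase.
Erbb4 JM-a exon: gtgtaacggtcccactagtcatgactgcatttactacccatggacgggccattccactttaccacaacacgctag
Erbb4 JM-b exon: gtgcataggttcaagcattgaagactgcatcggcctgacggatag
Erbb4 CYT exon: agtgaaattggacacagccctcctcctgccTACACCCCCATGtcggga
The last sequence is the 81-base intron of Erbb2 (chr11:98433050-98433130, plus strand) that the noncoding transcript Erbb2-202 keeps, with its first and last 2 bases in capitals.
Erbb2 retained intron: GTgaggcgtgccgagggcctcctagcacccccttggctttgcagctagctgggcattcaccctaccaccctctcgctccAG

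The cKO library held 55179026 estimated counts and the WT library 42875143. A gene is compared between libraries by its counts per 1000000 (CPM) after scaling, and genes are compared with each other by the authors' TPM, a level corrected for transcript length. It was assumed, from low counts, that 2 deposited counts correspond to 1 sequenced fragment. All intervals are 95% intervals on such fragments and cover counting error only. Secisbp2l itself stood at 466 CPM in cKO and 588 CPM in WT, a log2 ratio of -0.34, and the deposited values do not isolate its targeted exon. The libraries also differed in sex-linked RNA, with 13 counts of Xist in cKO and 35182 in WT, and 4280 counts of the Y-linked gene Ddx3y in cKO and 0 in WT. Genotype and sex-linked expression cannot be told apart in any comparison below. Hox genes, which mark position along the cord, were measured in 7 of 7 cases, and 2 genes of its caudal part were higher in cKO, Hoxd10 by a log2 ratio of 1.65 and Hoxc10 by 0.85. Of 4 forebrain and midbrain genes 1 was measured, Neurod6 at 21.5 TPM in cKO and 19.2 TPM in WT, and Otx2 was at 0 in both libraries. Of the other cell type lists, 0 of 11 astrocyte, 0 of 8 microglial and 0 of 7 endothelial and pericyte genes were called, and 2 of 8 meningeal and fibroblast genes were lower, Igf2 (-1.87) and Ogn (-0.60). These calls follow the rule given in the next paragraph, by which 2.46% of all measured genes were higher and 3.42% lower. The part of cord level and of meningeal RNA in the values below was not tested.

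Of the 8 genes, Nrg1 was higher in the cKO library and Erbb3 was lower, while the other 6 lay within 1.5-fold on counts and on TPM. A gene was called when it differed at least 1.5-fold and its interval left out a ratio of 1. By that rule 1 of 8 was higher, beside 2.46% of the 15917 genes whose mean level reached 1 CPM (the measured genes), and 1 of 8 was lower, beside 3.42%. All 8 were measured. The median log2 ratio of the 8 was 0.11, against 0.01 for all measured genes.

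**Figure D1:**
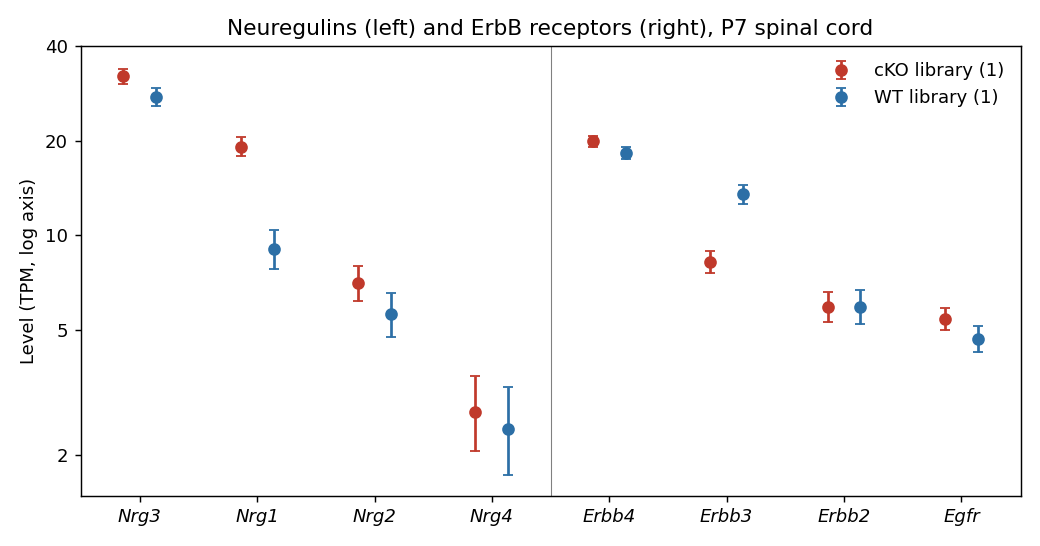
Level of each gene in TPM on a log axis, cKO (red) left of WT (blue), 1 library each; bars are 95% counting intervals. Nrg1 stands at 19.1 in cKO and 9.03 in WT, Erbb3 at 8.24 in cKO and 13.5 in WT, and the order of the genes within each class is the same in both libraries.

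Nrg3, a neuregulin expressed mainly in neurons that binds ERBB4, was the most abundant ligand gene. Its level was 32.003 TPM in cKO (interval 30.2 to 33.8) and 27.5 TPM in WT (25.7 to 29.5). Nrg1 followed at 19.1 TPM in cKO (17.8 to 20.5) and 9.03 TPM in WT (7.80 to 10.4). Nrg2, a ligand of ERBB3 and ERBB4, had 7.03 TPM in cKO (6.16 to 7.99) and 5.61 TPM in WT (4.76 to 6.56). Nrg4, a ligand of ERBB4, was the lowest at 2.74 TPM in cKO (2.06 to 3.57) and 2.42 TPM in WT (1.72 to 3.30). No neighbours in this order had overlapping intervals within a library, although without replicates the spread between animals is unknown. The 4 ligand genes summed to 60.9 TPM in cKO and 44.6 TPM in WT, and Nrg1 made up 31.4% of that sum in cKO and 20.2% in WT.

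Erbb4 was the most abundant receptor gene, at 19.9 TPM in cKO (interval 19.1 to 20.7) and 18.2 TPM in WT (17.5 to 19.1). Erbb3 came next at 8.24 TPM in cKO (7.59 to 8.93) and 13.5 TPM in WT (12.6 to 14.5). Erbb2 had 5.93 TPM in cKO (5.31 to 6.61) and 5.91 TPM in WT (5.22 to 6.68). Egfr had 5.42 TPM in cKO (4.996 to 5.88) and 4.69 TPM in WT (4.26 to 5.16), so that its interval overlapped that of Erbb2 in cKO but not in WT. The 4 receptor genes summed to 39.5 TPM in cKO and 42.4 TPM in WT. Erbb3 made up 20.9% of that sum in cKO and 31.9% in WT. The level of Erbb3 was 1.39 times that of its partner Erbb2 in cKO and 2.28 times in WT, while Erbb4 was 3.35 times Erbb2 in cKO and 3.08 times in WT.

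Nrg1 (ENSMUSG00000062991, chr8:31814551-32884029, minus strand) had 1546 counts in cKO and 382 in WT, or 28.0 CPM in cKO and 8.90 CPM in WT. Its log2 ratio, cKO over WT, came to 1.65 (interval 1.42 to 1.89), a 3.15-fold higher level, and 0.647% of measured genes had a ratio farther from 0 in either direction. On the authors' TPM the log2 ratio was 1.08, or 2.12-fold, and on their FPKM, another level corrected for length and depth, it was 1.04. TPM divides counts by transcript length, and the Nrg1 transcript with the most counts had 5415 bases in cKO (Nrg1-203) and 2452 bases in WT (Nrg1-201). By TPM, Nrg1-201 led in both libraries, with 51.2% of the gene's TPM in cKO and 41.2% in WT.

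**Figure D2:**
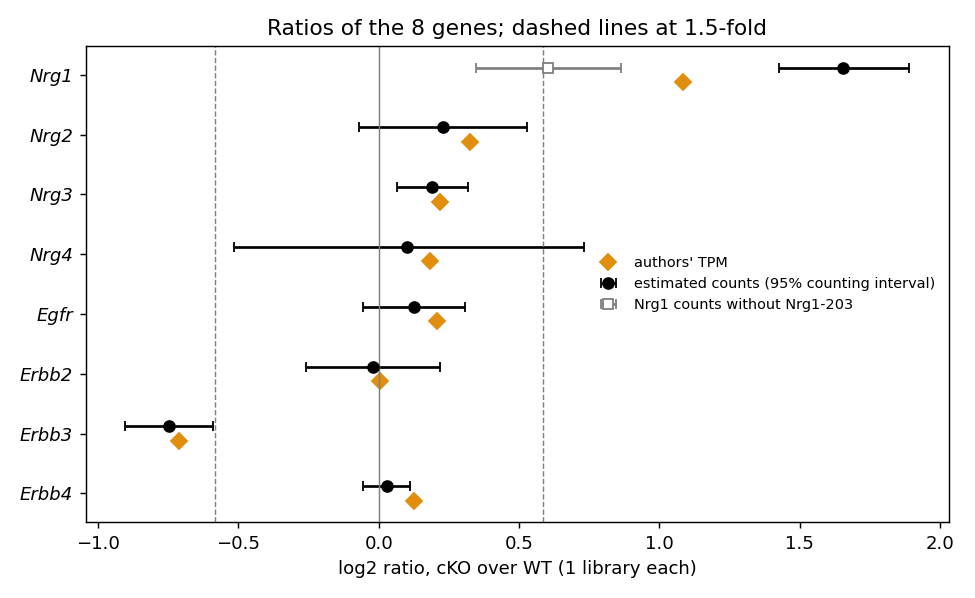
log2 ratio of cKO over WT for the 8 genes from estimated counts (black, 95% counting interval) and from the authors' TPM (orange); the open square is Nrg1 without its transcript Nrg1-203, and dashed lines mark 1.5-fold. Nrg1 lies at 1.65 on counts, 1.08 on TPM and 0.60 without Nrg1-203, Erbb3 lies at -0.75 on counts and -0.71 on TPM, and the other genes lie between the dashed lines.

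On counts, which are not corrected for length, most of the Nrg1 difference lay in 1 transcript, Nrg1-203. On TPM, Nrg1-203 had 6.21 in cKO and 0.04 in WT. Nrg1-201 differed by a similar amount, with 9.78 TPM in cKO and 3.73 TPM in WT. Some other transcripts, such as Nrg1-211 (0.18 TPM in cKO and 1.97 TPM in WT), were lower in cKO. Nrg1-203 encodes a form with an immunoglobulin (Ig)-like domain and the beta exon, and received 810 counts in cKO and 5 in WT, or 14.7 CPM in cKO and 0.117 CPM in WT. Its log2 ratio was 6.98 (interval 5.29 to 9.57), and 0.409% of 32757 measured transcripts reached that value in the same direction. In that share a WT count of 0 was replaced by 6, above the 5 of Nrg1-203, so transcripts absent from WT ranked lower. Nrg1-203 held 52.4% of the Nrg1 counts in cKO (Wilson interval 48.9% to 55.9%) and 1.31% in WT (0.41% to 4.13%), and 32.5% of the gene's TPM in cKO and 0.442% in WT. Left out of both libraries, the gene's remaining 736 counts in cKO and 377 in WT gave a log2 ratio of 0.60 (0.35 to 0.86), or 1.52-fold. On TPM the same remainder was 12.9 in cKO and 9.01 in WT, a log2 ratio of 0.52, or 1.43-fold. Without Nrg1-203 the gene thus lay just past the limit of 1.5-fold on counts and under it on TPM. These calculations were chosen after the transcript values had been seen.

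Nrg1-203 differs from the other Nrg1 transcripts by its long 3′ end. Its last exon has 4132 bases, and 2592 of these (chr8:31814551-31817142), 47.9% of the 5415-base transcript, are in no other deposited Nrg1 transcript. No other gene of the annotation overlaps that stretch on either strand. Fragments from this stretch could therefore be given to Nrg1-203 alone among annotated transcripts, and the whole transcript was given 5 counts in WT. The deposited table holds estimates for whole transcripts, so the position of the reads along Nrg1-203 was not examined.

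**Figure D3:**
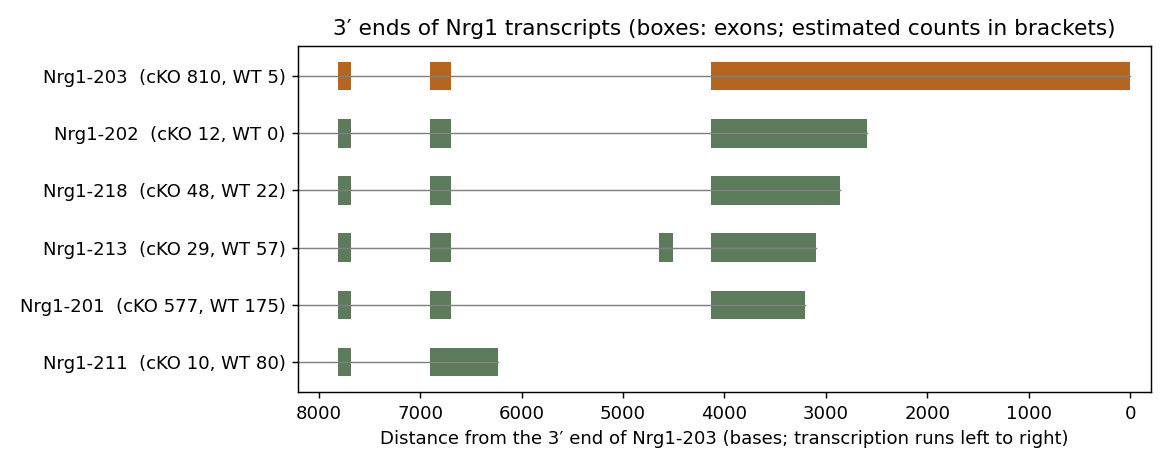
Exons (boxes) at the 3′ end of 6 Nrg1 transcripts by distance in bases from the end of Nrg1-203, drawn to scale, with the estimated counts of each transcript. Only the last exon of Nrg1-203, with 810 counts in cKO and 5 in WT, covers the final 2592 bases.

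Nrg1 transcripts that overlap the cysteine-rich first exon, which marks the membrane-anchored type III forms known from axons, were together also higher in cKO. The 6 transcripts that overlap this exon had 628 counts in cKO and 293 in WT, with a log2 ratio of 0.74 (interval 0.45 to 1.03). Among them, Nrg1-204 (16 counts in cKO and 25 in WT) and Nrg1-207 (16 in cKO and 4 in WT) are noncoding, of the retained-intron type. Nrg1-201, the full type III form of 2100 coding bases, had 10.5 CPM in cKO and 4.08 CPM in WT and a log2 ratio of 1.36 (1.01 to 1.72). Nrg1-211, a type III form with an earlier end, went the other way, with 10 counts in cKO and 80 in WT (log2 ratio -3.36, interval -5.06 to -2.02). These transcripts have 6 identical exons, so the division of counts between them rests on the authors' estimate.

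The 10 transcripts with an Ig-domain exon, which include the secreted type I forms, had 912 counts in cKO and 86 in WT (log2 ratio 3.04, interval 2.59 to 3.53). Without Nrg1-203 the other 9 had 102 counts in cKO and 81 in WT, a log2 ratio of -0.03 (-0.65 to 0.60). Nrg1-213, the main transcript with the alpha exon, had 29 counts in cKO and 57 in WT (log2 ratio -1.34, interval -2.36 to -0.38) and lay under a mean of 1 CPM. Transcripts with the beta exon shown above held 94.6% of the Nrg1 counts in cKO and 74.9% in WT, and those with the alpha exon 3.30% in cKO and 18.1% in WT. Exons of Gm26578, a noncoding gene on the opposite strand, overlap 482 bases of Nrg1 exons, and that gene had 44 counts in cKO and 27 in WT.

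Nrg2, on the minus strand of chromosome 18, had 468 counts in cKO and 311 in WT, or 8.49 CPM in cKO and 7.25 CPM in WT. Its log2 ratio of 0.23 had an interval of -0.07 to 0.53, which held equality. Within the gene the leading transcript was another one in each library. Nrg2-202 had 452 counts in cKO and 3 in WT (log2 ratio 6.87, interval 4.76 to 10.68). Nrg2-203 had 0 counts in cKO and 302 in WT, or 64.7-fold lower in cKO with a floor of 3 fragments (6 counts) put in place of 0. The interval's limit nearest to equality was -5.70 on the log2 scale. The deposited positions of the transcripts are the same, and the length implied by count and FPKM was 2987 bases for Nrg2-202 in cKO and 3002 bases for Nrg2-203 in WT. The level of the gene differed 1.17-fold, while its counts were given to different transcripts of similar length. The division between them is the authors' estimate. Their deposited models differ from those of GENCODE M21, so the exons that tell them apart are not known here, and a change of form was not tested.

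Nrg3 (ENSMUSG00000041014, chr14:38368952-39473088, minus strand) had 45.2 CPM in cKO and 39.6 CPM in WT, with a log2 ratio of 0.19 (interval 0.06 to 0.32), short of 1.5-fold. The shares of its main transcripts had overlapping intervals. Nrg3-201 held 72.2% of the counts in cKO (69.6% to 74.6%) and 70.0% in WT (66.9% to 73.0%). Nrg3-203, which lacks a 72-base coding exon of Nrg3-201, held 22.0% in cKO (19.8% to 24.4%) and 25.2% in WT (22.4% to 28.2%). Nrg3-202, looked at for its exon with 24 extra bases and not for its share, had 134 counts in cKO and 50 in WT (log2 ratio 1.06, interval 0.38 to 1.78).

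Nrg4 (ENSMUSG00000032311, chr9:55220222-55326844, minus strand) had 109 counts in cKO and 79 in WT, or 1.98 CPM in cKO and 1.84 CPM in WT. Its log2 ratio of 0.10 had a wide interval of -0.52 to 0.73. Neither of the 2 protein-coding Nrg4 transcripts received a count in either library. By counting error alone, at 3 fragments, that allows them 5.50% of the gene's counts in cKO and 7.59% in WT (upper Wilson limits of 6.58% in cKO and 8.86% in WT). Most counts, 79 in cKO and 53 in WT, were given to the noncoding transcript Nrg4-209, and 17 in cKO and 22 in WT to Nrg4-207, a transcript of the nonsense-mediated decay type. Nrg4-209 (8 exons, 1878 bases, last exon of 1187 bases) is much like the coding Nrg4-213 (8 exons, 1927 bases, last exon of 1186 bases). The division between them is the authors' estimate, so the limits above do not bound the coding share. Exons of Nrg4 overlap 368 bases of Fbxo22 on the opposite strand, which had 2103 counts in cKO and 1521 in WT, and whether the counting used strand is not stated, so the Nrg4 counts are uncertain to that extent.

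**Figure D4:**
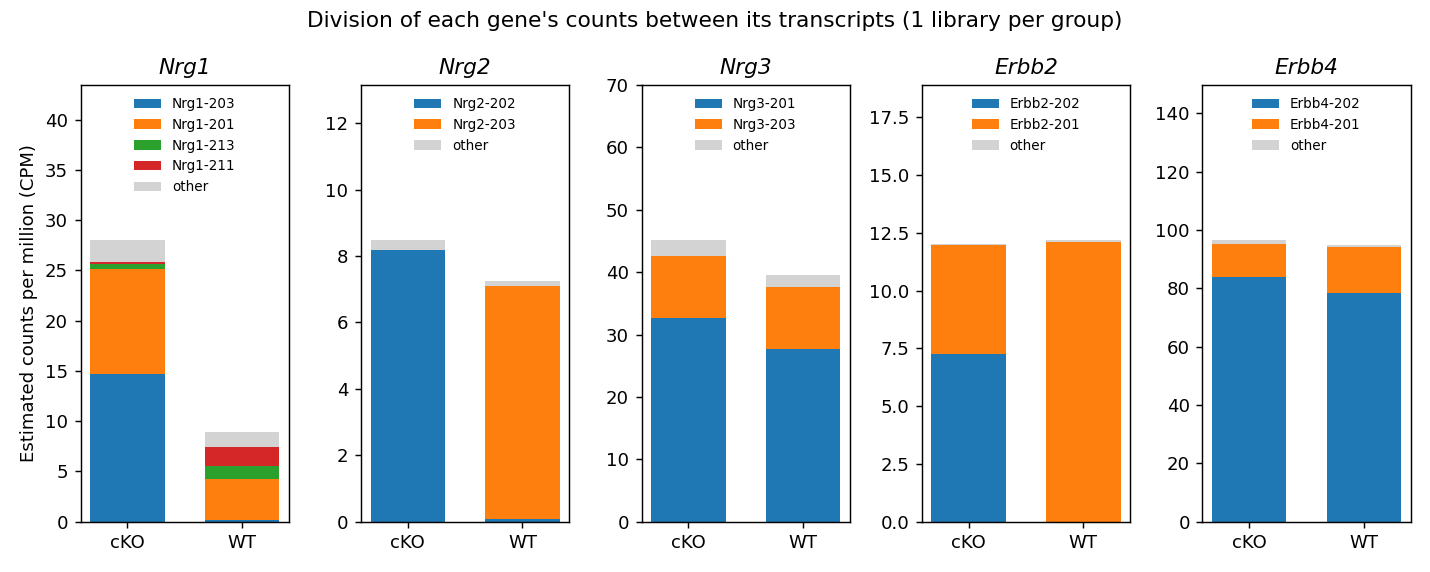
Estimated counts of each gene, in CPM, divided between the transcripts that held 10% or more of it in either library (colours) and the rest (grey), cKO left of WT. Nrg1-203 takes 14.7 CPM in cKO and 0.117 CPM in WT, Nrg2 and Erbb2 have similar totals with other leading transcripts, and Nrg3 and Erbb4 are divided much alike in both libraries.

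Erbb3 (ENSMUSG00000018166, chr10:128567523-128589652, minus strand) was the receptor gene that differed. It had 1189 counts in cKO and 1554 in WT, or 21.6 CPM in cKO and 36.2 CPM in WT. The log2 ratio was -0.75 (interval -0.90 to -0.59), a 1.68-fold lower level, and 3.91% of measured genes had a ratio farther from 0. The TPM ratio was similar at -0.71. Erbb3 has a single deposited transcript, Erbb3-201 of 28 exons and 6016 bases, so its counts were not divided, and no other gene shares its exons.

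Genes of oligodendrocytes moved in the same direction as Erbb3. By the rule of size, 3.42% of all measured genes were lower and 2.46% higher. Of the 13 mature oligodendrocyte and myelin genes, 12 fell below WT by the rule of size and 0 were higher, with a median log2 ratio of -1.03, summed levels of 8201 TPM in cKO and 15866 TPM in WT, and a ratio of -0.89 for Mbp, which encodes a myelin protein. Of 8 genes of newly formed oligodendrocytes, 5 were lower and 0 higher, with a median of -0.70 and summed levels of 842 TPM in cKO and 1314 TPM in WT. Of 7 precursor genes 0 were called, with a median of -0.12 and sums of 583 TPM in cKO and 574 TPM in WT. Schwann cells of the nerve roots are another known source of Erbb3, and of 9 Schwann cell genes 1, Drp2, was lower (-0.81) and 0 were higher, with sums of 1401 TPM in cKO and 1235 TPM in WT. None of these listed genes was at 0. In whole cord RNA, fewer cells of a type and less RNA per cell cannot be told apart, and the part of these cell types in the Erbb3 value was not tested.

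Erbb2 (ENSMUSG00000062312, chr11:98412470-98437716, plus strand) had 12.005 CPM in cKO and 12.2 CPM in WT, with a log2 ratio of -0.02 (interval -0.26 to 0.22). Its counts were divided in another way in each library. The coding transcript Erbb2-201 had 261 counts in cKO and 519 in WT, a log2 ratio of -1.35 (-1.67 to -1.05). Erbb2-202, annotated as noncoding, had 400 counts in cKO and 0 in WT, or 51.9-fold higher in cKO with the floor of 6 counts put in place of 0 in WT. The lower limit of its interval was a log2 ratio of 5.39. At 3 fragments, a count of 0 allows Erbb2-202 1.15% of the gene's WT counts (upper Wilson limit 1.45%). Of the 4431 bases of Erbb2-202, 98.2% are also in Erbb2-201, and its own part is the retained intron printed above. Erbb2-201 has 662 bases of its own, 639 of them at its 3′ end, and the division is the authors' estimate. Exons of Erbb2 overlap 9 bases of Mien1 on the opposite strand, which had 1745 counts in cKO and 1428 in WT.

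Erbb4 (ENSMUSG00000062209, chr1:68032186-69108059, minus strand) had 96.6 CPM in cKO and 94.8 CPM in WT, with a log2 ratio of 0.03 (interval -0.06 to 0.11). Inhibitory interneuron genes, which mark a main site of ERBB4, had a median of 0.23, and all 7 lay above 0, between 0.18 and 0.38. Of these 7, 0 were called, beside 2.46% of all measured genes higher and 3.42% lower. The JM-a exon, as a separate exon in Erbb4-201 and Erbb4-202, was in 98.4% of the counts in cKO and 99.2% in WT, and in 91.4% of the TPM in cKO and 96.2% in WT. Transcripts with the JM-b exon had 80 counts in cKO and 30 in WT (log2 ratio 1.05, interval 0.17 to 2.02), or 1.502% of the gene's counts in cKO and 0.738% in WT. These transcripts are shorter than the JM-a forms, and their share of the gene's TPM was 7.998% in cKO and 3.84% in WT. The JM-a transcripts end in an exon of 8301 bases, which Erbb4-205 (2196 bases) and Erbb4-204 (240 bases), the transcripts with the JM-b exon, lack. Erbb4-204, a noncoding transcript with 1 count in cKO and 0 in WT, also holds the JM-a bases, inside its last exon of 163 bases. Fragments of the 8301-base exon could be given to JM-a transcripts alone. The shares therefore do not measure how often each exon is used.

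Erbb4-202, which lacks the CYT exon, held 86.9% of the counts in cKO (Wilson interval 85.6% to 88.1%) and 82.9% in WT (81.2% to 84.5%). Erbb4-201, which has it, held 11.5% in cKO (10.4% to 12.8%) and 16.3% in WT (14.8% to 18.0%), with a log2 ratio of -0.48 (-0.70 to -0.25), short of 1.5-fold. These intervals of the count shares did not overlap between the libraries. By TPM the share of Erbb4-202 was 80.5% in cKO and 80.04% in WT, nearly equal, while that of Erbb4-201 was 10.9% in cKO and 16.1% in WT. Erbb4-201 differs from the longer form by only those 48 bases and the absence of 303 bases at the 5′ end, and the division is the authors' estimate.

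Egfr (ENSMUSG00000020122, chr11:16752203-16918158, plus strand) had 21.6 CPM in cKO and 19.8 CPM in WT. Its log2 ratio of 0.13 had an interval of -0.06 to 0.31. The full-length transcript Egfr-201 held 97.4% of the counts in cKO and 98.8% in WT. No exon of another gene overlaps those of Egfr.

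Of the 16 family transcripts that held 10% or more of their gene in either library, 14 were measured, and 8 of these met the rule of size, 4 higher and 4 lower. Over all measured transcripts 26.1% met it, 13.2% higher and 12.9% lower. At least 10-fold differences were found in 5 of the 14, beside 4.39% of all. The transcript with the most counts differed between the libraries in 3 of the 6 family genes with at least 2 transcripts and 100 counts in each library (Nrg1, Nrg2 and Erbb2), and in 11.7% of 11468 such genes. By TPM it differed in 2 of the 6 (Nrg2 and Erbb2), beside 13.3% of the same genes. The 16 transcripts were named for a large share in either library, which favours those that differ, so nothing is read from their count.

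The rest of the pathway was examined in 5 lists with 79 measured genes. Of these, 2 were higher and 1 lower by the rule of size (2.53% higher and 1.27% lower), beside 2.46% higher and 3.42% lower over all genes, and their median log2 ratio was 0.00. Among the other EGF-family ligands 3 of 7 were measured and 0 were called. Tgfa, a ligand of EGFR, was at 42.5 TPM in cKO and 54.5 TPM in WT (log2 ratio on counts -0.40, interval -0.48 to -0.31), Hbegf was at 26.2 TPM in cKO and 23.8 TPM in WT (0.11), and Egf was at 1.497 TPM in cKO and 1.31 TPM in WT (0.37).

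Of 12 genes with a part in the proteolysis of neuregulins and their receptors, not all of them proteases, 1 was higher and 0 lower. Over all measured genes these shares were 2.46% and 3.42%. Adam17, a sheddase of neuregulin 1 and other EGF-family ligands, stood at 37.0 CPM in cKO and 23.8 CPM in WT (log2 ratio 0.63, interval 0.48 to 0.79). Adam17 exons overlap 311 bases of Iah1 on the opposite strand, which had 373 counts in cKO and 350 in WT. The most abundant members, the gamma-secretase subunits Psenen (-0.15), Ncstn (-0.04) and Aph1a (-0.05), were close to equality.

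Of 31 adaptor and relay genes, 1 was higher, 1 was lower, and the median was 0.05. Nras, a small GTPase downstream of the receptors, stood at 103 CPM in cKO and 34.7 CPM in WT (log2 ratio 1.57, interval 1.45 to 1.69). The 4470-base transcript Nras-201 held 5624 of its 5683 counts in cKO and 1419 of its 1489 counts in WT. Akt2, a kinase downstream of phosphoinositide 3-kinase, stood at 36.4 CPM in cKO and 65.8 CPM in WT (-0.85, interval -0.97 to -0.74). The related Akt1 had 0.12. The synaptic scaffold gene Dlg4, whose product binds ERBB4, had 0.10, and Fyn, a Src-family kinase of oligodendrocytes, had -0.02.

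Negative regulators and response genes gave 0 calls. The 19 regulators had a median of -0.01 and lay between -0.45 and 0.21, with Nedd4, a ubiquitin ligase, at 0.02, Spred1 at -0.14 and Errfi1, an inhibitor of the receptor kinases, at 0.01. The 14 growth-factor response genes had a median of 0.11 and lay between -0.25 and 0.37, with Ccnd1 at -0.25, Phlda1 at -0.21 and Etv4 at -0.07.

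**Figure D5:**
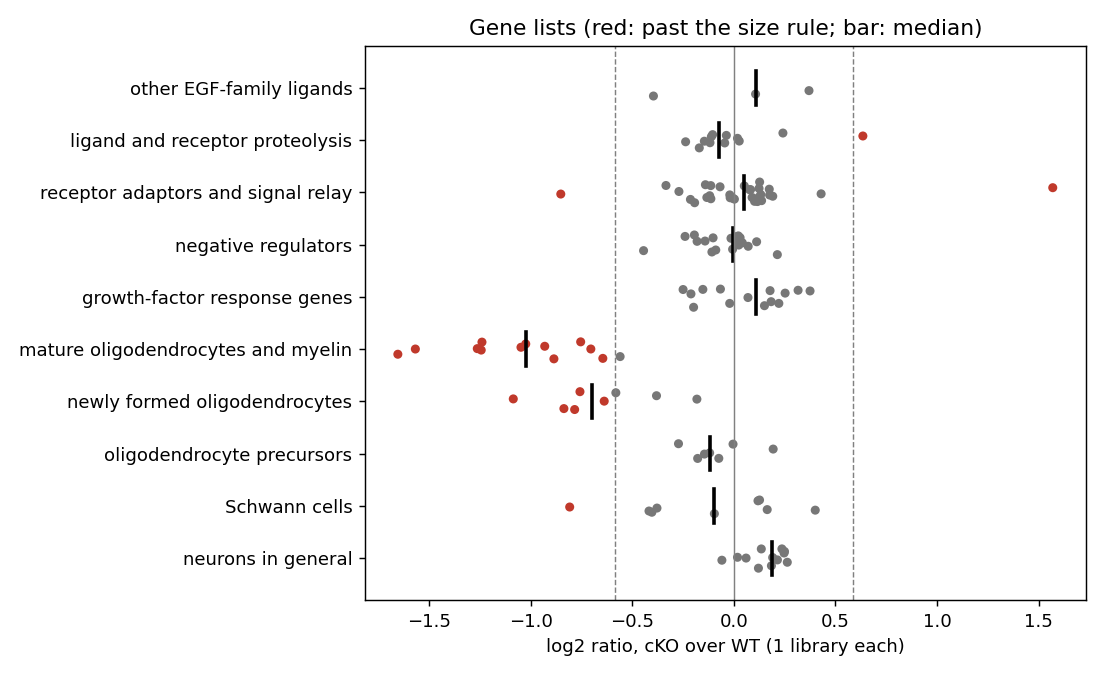
log2 ratio of cKO over WT for the measured genes of 5 signalling lists and 5 cell type lists (points), with each list's median as a black bar, genes past the rule of size in red and dashed lines at 1.5-fold. The signalling lists centre near 0 with 3 red points, and the mature and newly formed oligodendrocyte lists lie to the left.

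Markers of the cells that make neuregulins were set beside the ligand values. Over all measured genes, 2.46% were called higher and 3.42% lower. General neuron genes had a median of 0.19, with 0 of 12 called and sums of 7767 TPM in cKO and 6694 TPM in WT. Motor neuron genes, which mark a known source of Nrg1, had a median of 0.01, with 1 of 9 higher (Isl2, on 153 counts in cKO and 76 in WT) and sums of 264 TPM in cKO and 250 TPM in WT. Of 8 genes of sensory ganglion neurons, another source, 2 were measured and 0 called, with sums of 16.5 TPM in cKO and 15.1 TPM in WT, with Prdm12 at 0 counts in cKO and 7 in WT and Mrgprd at 2 counts in cKO and 0 in WT. The Nrg1 ratio of 1.65 was larger than that of each measured gene in these 3 lists, the highest of which was 0.65 for Isl2, while the ratio of 0.60 without Nrg1-203 was not. The part of these cells in the ligand values was not tested.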

How the data were processed

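Whole spinal cord was sequenced in 1 library per group, made with an mRNA-seq kit per the labels' protocols. CASAVA, Bowtie2 2.3.2 and GRCm38.p6 appear in the submitters' processing notes without a stated use. How reads were counted, on which annotation release and whether by strand, is not given in the sources used here. Per the file headers, the authors' tables give each gene and transcript as estimated counts, as FPKM and as TPM. The deposited estimated counts equalled a constant times FPKM times length, rounded up (from 0.1 below to 1.1 above), for 99.5% of cKO and 99.6% of WT transcripts under 50 counts. In genes with 1 transcript and under 10 counts, the product lay within 0.2 of an even number for 34.5% in cKO and 36.0% in WT, and within 0.2 of an odd number for 18.7% in cKO and 17.8% in WT, so 1 fragment was taken as 2 counts. The remaining values lay near neither, so this factor is an assumption behind the intervals.

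TMM factors (edgeR 4.0.16, R 4.3.3) were 0.999 for cKO and 1.001 for WT. Ratios carry exact Clopper-Pearson intervals, shares Wilson intervals and TPM levels exact Poisson intervals, all on fragments (scipy 1.17.1, Python 3.11.15). PCR copies are not separate molecules, so these intervals hold counting error alone. Transcript names and exons came from GENCODE M21, whose models differ from the deposited ones for Nrg2. The code was tested on simulated counts. Genes named were the 8 members, their transcripts with 10% or more of the counts, and from each list those past the rule of size with the largest ratios (up to 5 per pathway list, 3 per cell type list) and those of highest TPM (3 and 2). A few others are named as the ends of a range, as the only listed genes at 0, or, for Nrg3-202 and the exon classes, for their exons. Some genes that this rule names are not reported here. Members, lists and rules were chosen with earlier results of these data known. Alternatives were DESeq2 1.42.0 size factors, upper quartile and total count scaling, TPM, other filters, intervals and size limits.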

Additional observations from a re-analysis of the deposited data

How the results depend on the processing

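With 1 library per group no library could be left out, and no paired analysis was possible because each group has a single library. Of 87 alternative values for the ratios of the 8 genes, 78 stayed inside the main counting interval with the same call. The other filters, intervals and size limits leave each ratio as it was, so those values lay inside the interval by construction. Only the other scalings, TPM, the ratios to marker lists and the removal of Nrg1-203 could move a ratio. Nrg1 was past its limit in all but 1 of its alternatives. It was 1.07 on TPM with a pseudocount of 0.1, 1.01 with a pseudocount of 1 and, in calculations added after seeing the data, 0.60 without Nrg1-203 on counts and 0.52 without it on TPM, which is under 1.5-fold. Erbb3 ranged from -0.75 to -0.65 and missed only a limit of 2-fold, at -0.75, where 0 members were lower. Erbb4 was 0.12 on TPM with either pseudocount (0.123 and 0.118) and -0.15 relative to the summed neuron list, and Nrg3 was 0.016 relative to that list. The count of all genes past the rule was 659 higher and 831 lower with no filter, 190 higher and 306 lower with a filter of 5 CPM, 992 higher and 1248 lower at a lower size limit, and 130 higher and 183 lower at 2-fold. On TPM, 532 were higher and 519 lower with a pseudocount of 0.1 (on counts, 2.46% were higher and 3.42% lower), and 354 were lower with a pseudocount of 1. Of the pathway genes, 1 was higher with the pseudocount of 1, 4 were lower at the lower size limit, and 1 was higher and 0 lower at 2-fold. Shares of the named transcripts moved outside their interval in 12 of 32 cases when TPM replaced counts. No gene shares exons with a member on its own strand, so sums over such loci were not run. Apart from the settings that define them, the cause of these shifts was not tested. Depth limits Nrg4 most, with 109 counts in cKO and 79 in WT.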
